A study of Mus musculus with 4 samples.

Results

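A set of 9 genes was followed here, of 35427 genes in the files: the 3 chains of the complement component C1q (C1qa, C1qb and C1qc), the components C3 and C4b, the receptor genes C3ar1, Itgam and Itgb2, and the inhibitor gene Serping1. They were chosen by name, and 9 of 9 passed the filter on low counts that left 14907 genes, called measured below. The study measured polyA-enriched RNA from a ribosome pulldown in the hippocampus of C57BL/6J mice aged 4 months. All mice of both groups carried P2RY12CreER and Rpl22HA RiboTag, in which a Cre driven by the microglial gene P2ry12 switches on a tagged ribosomal protein, and all were fear conditioned, a training that pairs a place or a cue with a shock. Sleep-deprived mice were kept awake for 6 h after training, and control mice were left to sleep for those 6 h. Each group had 2 deposited files, described as technical replicates, and each file pooled 2 mice. The titles gave the groups, because the treatment label names sleep deprivation for all 4 samples. A comparison with hippocampal RNA taken before the pulldown was not analysed here.

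Complement is a cascade of plasma and tissue proteins that tags targets for uptake or lysis. In the classical pathway C1q binds a target and its proteases cut C4 and C2, which leads to the cleavage of C3. Fragments of C3 are read by the receptor made of Itgam and Itgb2 (complement receptor 3) and by the C3a receptor, while the C1 inhibitor made from Serping1 blocks the proteases. In the brain microglia are the main source of C1q and carry complement receptor 3, and this route is known for the tagging and uptake of synapses during development.

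The 3 C1q genes lie next to each other on chromosome 4, from 136880129 to 136898803 in GRCm38, within 18675 bases on the minus strand, in the order C1qb, C1qc and C1qa. No other gene is annotated inside that stretch. C1qb and C1qc are separated by 3616 bases and C1qc and C1qa by 2851 bases. The other genes lie apart, with Itgam at chr7:128062640-128118491 and Itgb2 at chr10:77530252-77565708 on the plus strand. C3 at chr17:57203970-57228136, C4b at chr17:34728380-34743882, C3ar1 at chr6:122847138-122856161 and Serping1 at chr2:84765387-84775444 are on the minus strand. Promoter sequences from RefSeq (GRCm38.p6) matched 5 of the 9 genes (C1qb, C1qc, C3, C3ar1 and Itgam). The stretches before the starts of C1qb, C1qc and Itgam are shown because these genes were higher together in the sleep-deprived library. They read 5′ to 3′ on the gene's strand, and capitals mark the motif GAGGAAG, the core of the site of PU.1, a transcription factor of macrophages and microglia, on either strand.
C1qb (chr4:136886201-136886450, minus strand): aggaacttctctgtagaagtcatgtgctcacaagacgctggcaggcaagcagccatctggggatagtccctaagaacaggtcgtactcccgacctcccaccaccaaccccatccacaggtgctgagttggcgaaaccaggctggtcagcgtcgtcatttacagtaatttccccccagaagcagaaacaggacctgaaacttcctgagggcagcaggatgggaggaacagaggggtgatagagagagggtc
C1qc (chr4:136893066-136893164, minus strand): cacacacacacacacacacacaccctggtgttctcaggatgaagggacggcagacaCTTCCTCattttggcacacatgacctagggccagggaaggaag
Itgam (chr7:128062390-128062639, plus strand): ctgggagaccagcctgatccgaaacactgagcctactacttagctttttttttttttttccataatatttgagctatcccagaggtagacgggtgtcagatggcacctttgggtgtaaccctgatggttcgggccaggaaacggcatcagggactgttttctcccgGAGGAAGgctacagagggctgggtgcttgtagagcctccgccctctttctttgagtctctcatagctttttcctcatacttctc
The C1qc stretch is the 99 bases of its RefSeq window that lie outside the gene as GENCODE annotates it. GAGGAAG was found once before C1qc, from 194 to 188 bases before the RefSeq start, and once before Itgam, from 84 to 78 bases before it. It was not found in the 250 bases before the RefSeq start of C1qb, C3ar1 or C3. Of 32851 promoters of the same length, 10.6% hold this motif on either strand. Of the other motifs searched on both strands, the C/EBP motif TTGCNNAA was found before C3, at 45 to 38 bases, and is held by 9.56% of promoters. The composite motif of PU.1 and IRF factors (in 2.30% of promoters), the MEF2 motif (3.20%) and the glucocorticoid receptor motif (0.387%) were not found in these 5 windows, which says only that the letters searched are not there. GAGGAAG shares bases with no other match found there.

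The files held 14473030 and 14431647 estimated reads in the sleep-deprived group and 14877011 and 14833320 in the control group. Within a group, the pair of files were closer to each other than sampling noise allows (chi-square over degrees of freedom of 0.207 for sleep-deprived and 0.335 for control, against 73.7 to 73.9 across groups). Each pair was therefore averaged and counted as 1 sample. Every comparison thus sets 1 sleep-deprived library against 1 control library, with no p-value, and differences between mice were not measured. CPM are reads scaled by TMM to a common library size, and ratios are sleep-deprived over control with a 95% interval that covers counting error only. A gene was called when its ratio reached 2-fold and its interval left out 1. By this rule 632 of the measured genes (4.24%) were called higher and 842 (5.65%) lower in the sleep-deprived library; the split was 1374 higher and 673 lower with TPM, and 936 and 842 with protein coding transcripts alone.

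Of the 9 genes, 5 were called higher and 0 lower: the 3 C1q chains and both chains of complement receptor 3. The background was 4.24% higher. The median log2 ratio of the 9 genes was 1.32, against -0.01 over all measured genes, whose quartiles were -0.38 and 0.35. The components C4b and C3, the receptor gene C3ar1 and the inhibitor gene Serping1 were not called.

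**Figure D1:**
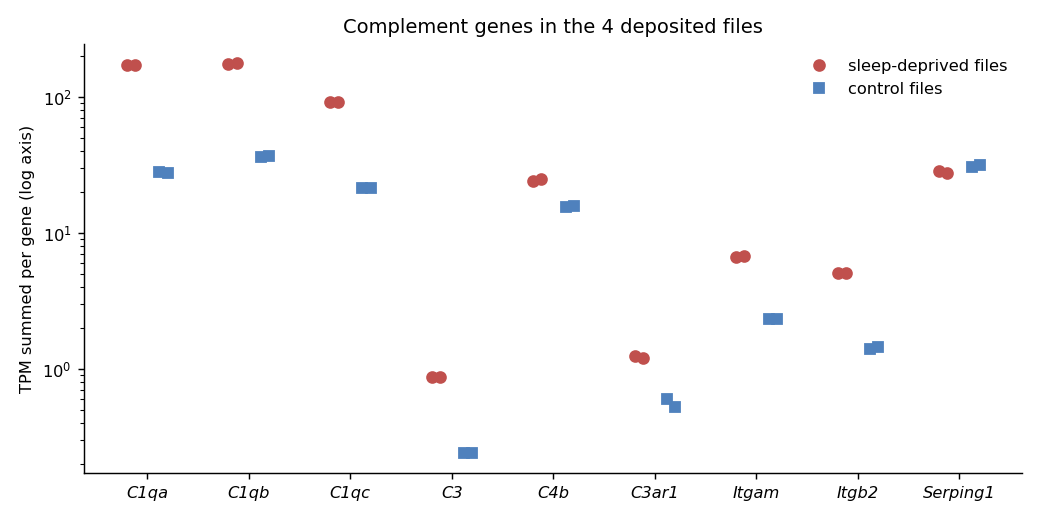
TPM summed over the transcripts of each gene, on a log axis, in the 2 sleep-deprived files (circles, left) and the 2 control files (squares, right). The C1q genes lie between 91.6 and 177 TPM in the sleep-deprived files and between 21.5 and 37.0 TPM in the control files, and Serping1 is the 1 gene with lower TPM in the sleep-deprived files.

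Ordered by TPM, which is per length, the sleep-deprived library had C1qb at 177 TPM, C1qa at 172, C1qc at 92.0, Serping1 at 28.1, C4b at 24.5, Itgam at 6.72, Itgb2 at 5.09, C3ar1 at 1.23 and C3 at 0.870. In the control library the TPM order was C1qb at 36.6, Serping1 at 31.1, C1qa at 27.9, C1qc at 21.5, C4b at 15.6, Itgam at 2.33, Itgb2 at 1.43, C3ar1 at 0.565 and C3 at 0.240. The order differed between the libraries only in the place of Serping1, which stood below the 3 C1q chains in the sleep-deprived library and between C1qb and C1qa in the control library. In TPM, C1qa was 6.11 times Serping1 in the sleep-deprived library and 0.899 times Serping1 in the control library. With 1 library per group, no spread between mice was at hand to judge neighbours in these orders.

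C1qa encodes the A chain of C1q, the molecule that starts the classical pathway. It had 1022 and 1022 estimated reads in the sleep-deprived files, against 208 and 206 in the control files. C1qb, the B chain, had 1118 and 1114 reads in the sleep-deprived files, against 285 and 290 in the control files. For the C chain, C1qc had 666 and 657 reads in the sleep-deprived files, against 192 and 191 in the control files. For each chain the reads were higher in the sleep-deprived files than in the control files. The files of a group were not counted as separate samples, so their agreement was no further check of the ratio. Summed over the chains, C1q was at 198 CPM in the sleep-deprived library and 45.6 CPM in the control library, a ratio of 4.34 (3.99 to 4.72).

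The chains did not move by the same ratio. C1qa was at 72.2 CPM in the sleep-deprived library and 13.7 CPM in the control library, a ratio of 5.25 (4.52 to 6.13), while that of C1qb was 4.12 (3.62 to 4.71) and that of C1qc 3.67 (3.12 to 4.33). The ratio of C1qa was 1.43 times that of C1qc (1.14 to 1.79) and 1.27 times that of C1qb (1.04 to 1.56), both beyond counting error, whereas C1qb and C1qc differed by 1.12 times (0.909 to 1.39), within it. C1qa made up 36.5% of C1q reads (exact 95% interval 34.7 to 38.3) in the sleep-deprived library and 30.1% (26.7 to 33.7) in the control library. The share of C1qb was 39.9% (38.0 to 41.7) in the sleep-deprived library and 41.9% (38.2 to 45.7) in the control library, and that of C1qc was 23.6% (22.1 to 25.3) in the sleep-deprived library and 27.9% (24.6 to 31.5) in the control library. These intervals hold counting error only, and differences between mice or pulldowns in the chain shares were not measured.

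Of 9956 genes whose mean over both libraries reached 10 CPM, 6 had a higher ratio than C1qa, 11 a higher one than C1qb and 16 a higher one than C1qc. The 5 other genes whose ratio lay nearest to that of summed C1q over the 2 libraries, of 9950 candidates, were Fcgr3, an IgG receptor gene (4.35), Nr4a1, an immediate early transcription factor gene (4.55), the predicted gene Gm28036 (4.55), the tropomyosin gene Tpm4 (4.09) and Ctss, which encodes the lysosomal protease cathepsin S (4.63). With 2 libraries a likeness of pattern is a likeness of this 1 ratio.

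Itgam encodes the alpha chain of complement receptor 3, also known as CD11b. It had 224 and 226 reads in the sleep-deprived files, against 96 and 96 in the control files, and was higher, with a ratio of 2.49 (1.96 to 3.20). Itgb2 encodes the beta chain CD18, which it shares with the other leukocyte integrins. It had 105 and 104 reads in the sleep-deprived files, against 35 and 37 in the control files, and was higher, with a ratio of 3.07 (2.09 to 4.63). The ratio of Itgam was 0.812 times that of Itgb2 (0.502 to 1.30), a difference within counting error. In TPM, Itgam stood at 1.32 times Itgb2 in the sleep-deprived library and at 1.62 times in the control library.

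C3ar1 encodes the receptor for C3a, the small fragment released when C3 is cut. It had 38 and 37 reads in the sleep-deprived files, against 23 and 20 in the control files. The ratio of 1.84 (1.06 to 3.26) did not reach 2-fold. Without control replicate 1 it was 2.02 (1.15 to 3.66) and passed the rule. With TPM it was 2.17 (1.25 to 3.85) and passed too, which made 6 of the 9 genes higher, against 9.22% of all measured genes with TPM. Divided by the TPM ratio of the median measured gene, that of C3ar1 was 1.87, under 2-fold. With a correction for transcript length the ratio was 1.85 and not called. At 1.5-fold C3ar1 was the sixth gene called, against 12.5% of all measured genes higher. At 3-fold 4 genes were called, without Itgam, against 1.64% of all measured genes higher.

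C4b encodes the component that C1 proteases cut, and astrocytes and oligodendrocytes are known to make it as well. It had 379 and 384 reads in the sleep-deprived files, against 342 and 349 in the control files, a ratio of 1.17 (1.01 to 1.36). Its interval lay just above 1 with TMM scaling, and the gene was not called. The interval began below 1 with upper-quartile factors (0.9999), total reads (0.978) and protein coding transcripts alone (0.979). The ratio of C1qa was 4.47 times that of C4b (3.61 to 5.54) and the ratio of C1qc 3.12 times (2.50 to 3.90), a difference beyond counting error. No transcript was matched to the near-identical neighbour C4a, and reads from C4a can stand under C4b.

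C3, the component on which all complement pathways meet, was close to the limit of these libraries. It had 4 and 4 reads in the sleep-deprived files, against 11 and 11 in the control files, a ratio of 0.387 (0.0899 to 1.31) that was not called. C3 passed the filter through the control library. Its direction turned with the unit: in TPM it stood at 0.870 in the sleep-deprived library and 0.240 in the control library, a ratio of 3.63. Of the 4 sleep-deprived reads, 1.86 per file were assigned to a short coding transcript of 554 bases, which gave 0.810 and 0.814 TPM, and the rest to the full coding transcript of 5136 bases, to which all control reads were assigned. No direction can be read from C3 at this depth.

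Serping1 encodes the inhibitor of the C1 proteases. It had 306 and 304 reads in the sleep-deprived files, against 434 and 445 in the control files. The ratio of 0.738 (0.635 to 0.856) was below 1 but did not reach 2-fold. In TPM the ratio was 0.904.

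**Figure D2:**
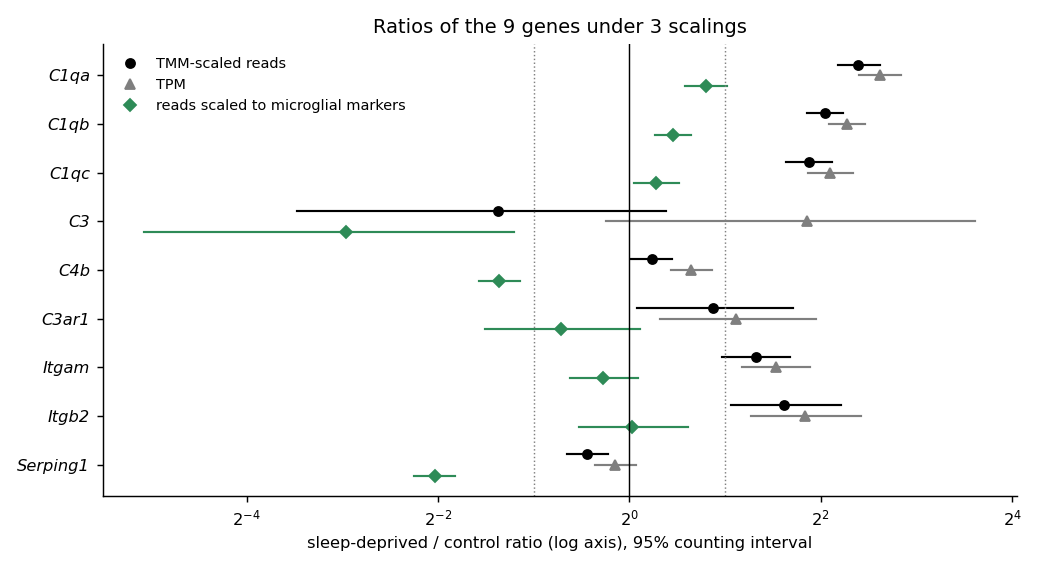
Ratio of sleep-deprived over control for each gene, on a log axis, from TMM-scaled reads (circles), from TPM (triangles) and from reads scaled to the summed microglial markers (diamonds), with 95% counting intervals as lines and 2-fold marked by dots. The C1q chains lie between 3.67 and 5.25 on TMM-scaled reads and between 1.22 and 1.74 when scaled to microglial markers, and C3 changes side with TPM.

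Ratios in TPM were larger for all 9 genes, and the TPM of the median measured gene stood higher in sleep-deprived mice as well (median log2 TPM ratio 0.22). Divided by that of the median gene, the TPM ratios were 5.29 for C1qa, 4.16 for C1qb, 3.69 for C1qc, 2.49 for Itgam, 3.07 for Itgb2, 1.87 for C3ar1, 1.35 for C4b and 0.779 for Serping1. Apart from C3 (3.13), none of the 9 genes changed direction between TMM-scaled reads and these values.

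Most microglial markers were higher as well. Of 20 microglial markers, none of them among the 9 genes, 20 were measured, 15 were higher and 0 lower, with a median ratio of 2.70, and P2ry12, Siglech, Sall1, Aif1 and Cd33 were not called. They summed to 672 and 669 CPM in the sleep-deprived files, against 223 and 222 CPM in the control files, a ratio of 3.01 (2.90 to 3.14), and none was at 0. Slc2a5, 1 of the 15 higher markers, passed the filter only through the sleep-deprived library. P2ry12, whose promoter drives the Cre, had a ratio of 1.93 (1.60 to 2.33), and Sall1, a microglial transcription factor gene, was at 8.34 CPM in the sleep-deprived library and 8.37 CPM in the control library. In pulldown RNA of a tissue, more microglial cells in the sample and more RNA per microglial cell cannot be told apart, and neither can a difference in the yield of the pulldown.

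Scaled to the summed microglial markers in place of all genes, the ratio of summed C1q was 1.44 (1.32 to 1.57), with 1.74 for C1qa, 1.37 for C1qb and 1.22 for C1qc, all under 2-fold with intervals above 1. Itgb2 was level with the sum at 1.02 (0.692 to 1.53). Itgam stood at 0.828 (0.649 to 1.06) and C3ar1 at 0.610 (0.352 to 1.08). C4b, at 0.390 (0.336 to 0.452), and Serping1, at 0.245 (0.211 to 0.284), were lower than the marker sum. C3 stood at 0.128 (0.0298 to 0.433), again on 4 against 11 reads, with no direction read from it because its TPM ratio lay above 1. On this scale 0 of the 9 genes passed the rule as higher and 3 as lower, C3 among them, against 0.268% of all measured genes higher and 85.7% lower. Those intervals take the marker sum as fixed. The single markers ranged in their TMM-scaled ratio from 0.997 to 6.39, which spans the ratios of the C1q chains, C3ar1, C4b and both integrin chains.

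**Figure D3:**
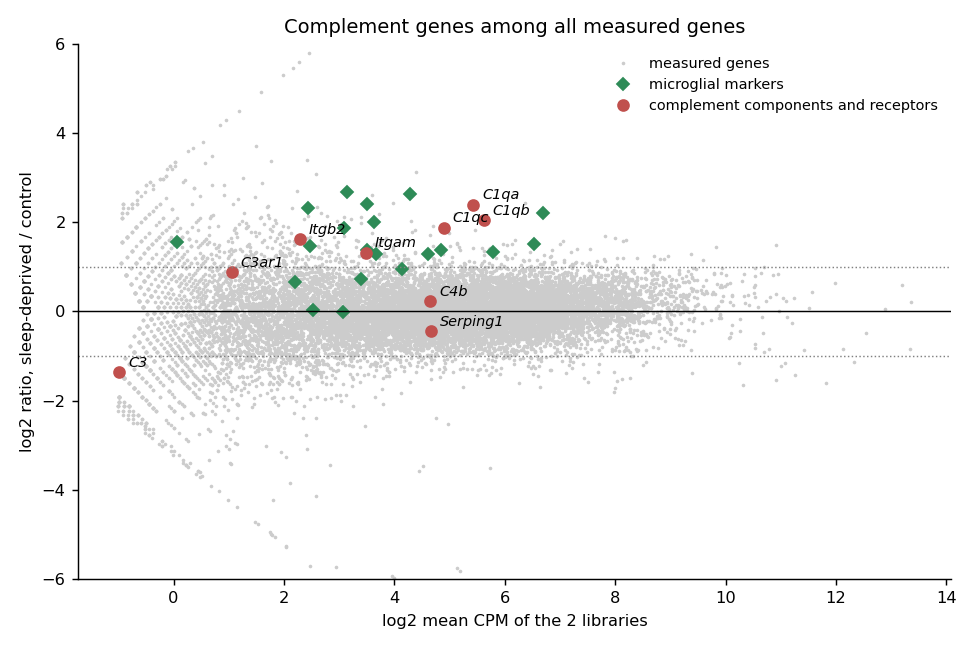
Log2 ratio of sleep-deprived over control against log2 mean CPM of the 2 libraries for all measured genes (grey), the microglial markers (diamonds) and the 9 complement genes (labelled circles), with 2-fold marked by dotted lines. C1qa, C1qb, C1qc, Itgam and Itgb2 lie among the microglial markers above 2-fold. C4b, at 0.23, and Serping1, at -0.44, lie between the 2-fold lines, and 14 measured genes lie outside the axis limits of 6.

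Other cells that can carry these genes were checked by their markers. Border-associated macrophages also make C1q: 4 of their 7 markers were measured, 3 were higher and 0 lower, and the 7 summed to 10.5 and 10.4 CPM in the sleep-deprived files, against 6.11 and 5.91 CPM in the control files, with none at 0 in all files. Of the 3, Lyve1 (2 and 3 control reads) and Folr2 (6 and 1) passed the filter only through the sleep-deprived library. Mrc1 was not called, at 1.15 (0.714 to 1.87). The markers under the filter went both ways. Ms4a7 had 0 and 0 reads in the sleep-deprived files, against 8 and 9 in the control files. Cbr2 had 8 and 7 against 10 and 9, and Pf4 had 4 and 4 against 1 and 1. The part of these macrophages in the C1q values was not tested. Monocytes and neutrophils also carry Itgam and Itgb2: 3 of their 7 markers were measured, with 1 higher (Ly6c2) and 1 lower (Ly6g), and the 7 summed to 2.33 and 2.19 CPM in the sleep-deprived files, against 2.52 and 2.46 CPM in the control files. Of these markers the neutrophil gene S100a8 had 1 read and S100a9 had 1 or 2 reads per file, near 0, and Ly6g and Plac8 were at 0 in the sleep-deprived files. Ly6c2 passed the filter only through the sleep-deprived library and Ly6g only through the control library. Among lymphocyte markers, Ms4a1 and Nkg7 were at 0 in all files, and the 6 genes summed to 1.34 and 1.41 CPM in the sleep-deprived files, against 1.13 and 1.06 CPM in the control files.

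Astrocyte markers, of a cell type that makes C4b and Serping1, were lower for 3 of 8 genes and higher for 0, and summed to 858 and 853 CPM in the sleep-deprived files, against 1632 and 1625 CPM in the control files. For oligodendrocytes, 2 of 7 markers were lower, with sums of 2196 and 2183 CPM in the sleep-deprived files, against 3514 and 3491 CPM in the control files. Neuronal markers had 0 of 8 called and summed to 2185 and 2174 CPM in the sleep-deprived files, against 2593 and 2578 CPM in the control files. The single neuronal markers went both ways, from 0.575 (0.546 to 0.606) for Gad1 to 1.70 (1.61 to 1.79) for Slc17a7. Endothelial markers had 0 of 6 called (151 and 151 CPM in the sleep-deprived files, 153 and 152 in the control files), and mural and fibroblast markers had 2 of 6 lower (134 and 133 CPM in the sleep-deprived files, 198 and 197 in the control files). None of these markers was at 0 in all files. The part of these cell types in the values of C4b, C3 and Serping1 was not tested.

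The transcripts of the 9 genes showed where the reads were assigned. The files list 26 transcripts for them, of which 17 are annotated as protein coding, and 9 had no reads in any file. C1qa, C1qb and C3ar1 have 1 transcript each. For C1qc, C1qc-201 took 100% of reads in the sleep-deprived library, and the non-coding C1qc-202 took 2.01 reads in each control file and 0 in the sleep-deprived files. For Serping1, the main coding transcript, of 1768 bases, took 93.2% of reads in the sleep-deprived library and 97.1% in the control library. A non-coding transcript of 903 bases had 17.1 and 6.54 reads in the sleep-deprived files, against 2.13 and 1.06 in the control files, a gap within the sleep-deprived group as well as between groups.

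C4b-201, the full coding transcript, had 319 and 322 reads in the sleep-deprived files, against 298 and 304 in the control files. The retained-intron transcript C4b-203 had 55.8 and 59.9 reads in the sleep-deprived files, against 41.1 and 39.4 in the control files. Retained intron reads made up 15.2% of C4b in the sleep-deprived library and 11.7% in the control library. Because C4b-203 has 749 bases against 5379 of C4b-201, it carried more TPM than C4b-201 in all 4 files.

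Itgam reads were assigned wholly to 1 of a pair of coding transcripts in each group. Itgam-201 had 224 and 226 reads in the sleep-deprived files, against 0 and 0 in the control files, and Itgam-203 had 0 and 0 reads in the sleep-deprived files, against 96 and 96 in the control files. Both transcripts have 30 exons and differ by 33 bases in all. Itgam-201 alone holds 29 bases at its 5′ end (chr7:128062640-128062668), 3 coding bases at the start of exon 14 (chr7:128101634-128101636) and 1 base at its 3′ end. The join of exons 13 and 14 is shown for both, with 15 bases on each side and the 3 extra bases in capitals.
Itgam-201: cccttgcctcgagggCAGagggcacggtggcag
Itgam-203: cccttgcctcgagggagggcacggtggcag
The number of reads that cross those bases was not analysed here, so a change of transcript is not shown. The same exons overlap Gm49368, which covers 68.7% of the exon bases of Itgam on the same strand and had 1.35 and 1.36 reads in the sleep-deprived files, against 0 and 0 in the control files. The other 8 genes share no exon bases with an annotated gene.

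**Figure D4:**
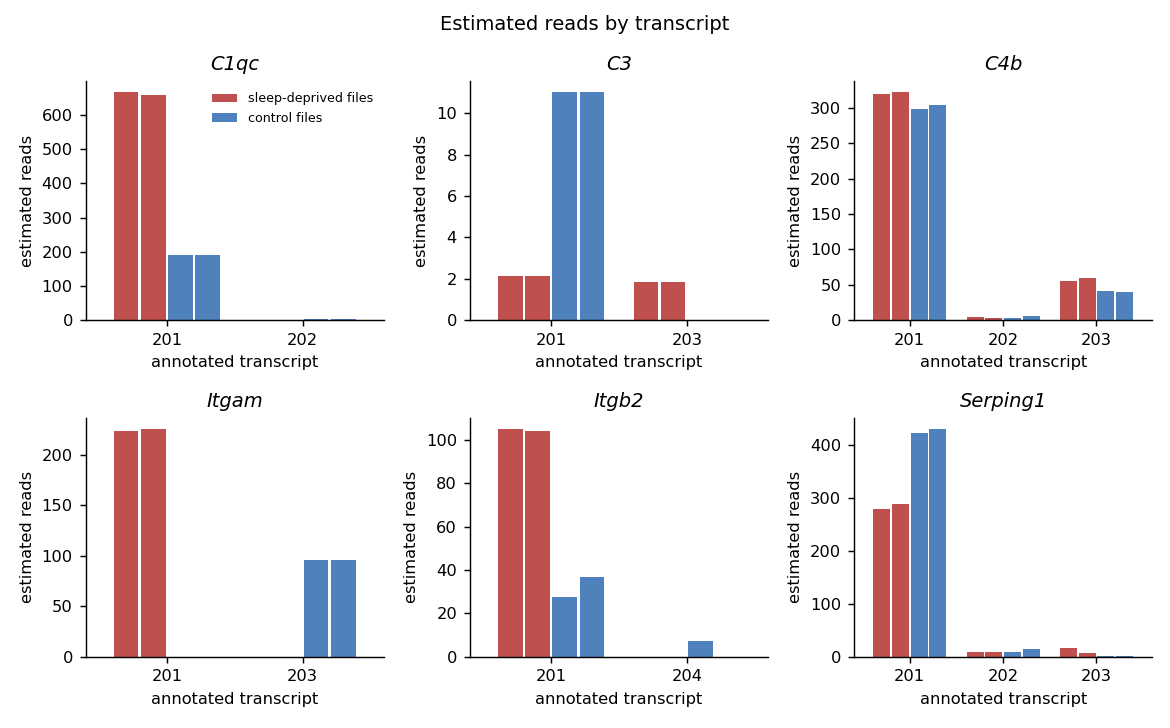
Estimated reads in each file (bars, from 0) by annotated transcript for 6 genes with more than 1 transcript, sleep-deprived files to the left of control files, for transcripts with reads in any file. Itgam reads stand wholly on Itgam-201 in the sleep-deprived files and on Itgam-203 in the control files, C3 reads split only in the sleep-deprived files, and C4b keeps a minor retained-intron transcript in both groups.

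A list of 56 other complement genes, ordered by role, was set beside the 9. Of these 31 were measured, 3 were higher and 1 was lower, against backgrounds of 4.24% higher and 5.65% lower over all measured genes. Their median ratio was 1.06, against 2.49 for the 9 genes, and 19 lay above 1 and 12 below. A further 11 had no reads in any file, 13 were under the filter, and C4a had no transcript matched to it. Of the genes called higher, C1s2 and Cfb passed the filter only through the sleep-deprived library, where they are high, so their count leans on the filter.

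Among the proteases that act next to C1q and the lectins, and their targets, 5 of 8 genes were measured and 1 was higher. C1s2, a copy of the gene for the C1s protease, had 22.1 and 23.7 reads in the sleep-deprived files, against 5 and 5 in the control files, a ratio of 4.90 (1.82 to 16.5). Its close relative C1s1 had 10.9 and 11.3 reads in the sleep-deprived files, against 21 and 21 in the control files, a ratio of 0.557 (0.243 to 1.21). Reads of these similar genes are divided by the estimate, so the opposite directions are uncertain. Masp1, a protease of the lectin pathway, had a ratio of 0.642 (0.470 to 0.871) and was not called. Masp2, another such protease and the most abundant of this role, had a ratio of 1.60 (1.23 to 2.10). Of its exon bases 54.9% lie opposite Tardbp, which had 14445 and 14407 reads in the sleep-deprived files, against 11695 and 11670 in the control files, and the strand setting of the counting is unknown.

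Of the 4 genes listed under the alternative pathway, 3 were measured and 2 were higher. The other measured gene was Hc, which encodes the terminal component C5 and was not called. It had 11 and 9 reads in the sleep-deprived files, against 17 and 20 in the control files, a ratio of 0.591 (0.244 to 1.35). Cfp encodes properdin, which stabilises the enzyme that cuts C3. It had 1317 and 1292 reads in the sleep-deprived files, against 603 and 605 in the control files, a ratio of 2.30 (2.08 to 2.53). Cfb, the protease factor B, had 22 and 22 reads in the sleep-deprived files, against 12 and 8 in the control files, a ratio of 2.34 (1.06 to 5.54). Without control replicate 2 the Cfb ratio was 1.96 and the gene was not called, and 79.5% of its exon bases lie in Gm20547, which had no reads. Cfd, the protease factor D, had no reads in any file.

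The lectin pathway recognition genes had 2 of 7 measured and 1 lower. Colec12, a scavenger receptor with a collectin domain, had 109 and 106 reads in the sleep-deprived files, against 266 and 271 in the control files, a ratio of 0.429 (0.340 to 0.538). Of the 6 genes listed as terminal components, which form the membrane pore, only C8g was measured. It was at 2.90 CPM in the sleep-deprived library and 1.93 CPM in the control library. C8g was not called on TMM-scaled reads but was higher with TPM (2.37) and with a correction for transcript length (2.04). The genes C6, C7 and C9 had no reads in any file. Among other receptors, Cr1l, which in mice encodes the membrane regulator Crry, was the most abundant, with a ratio of 1.26 (1.05 to 1.51). C5ar1, the C5a receptor gene, had 6 and 6 reads in the sleep-deprived files, against 1 and 1 in the control files, and Itgax, another integrin partner of Itgb2, had 8 and 8 reads in the sleep-deprived files, against 2 and 2 in the control files. Both were under the filter.

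None of the 3 measured soluble regulators and none of the 11 measured membrane regulators was called on TMM-scaled reads. Csmd3 was called higher with TPM (2.52) and with a correction for transcript length (2.17), and Csmd1 with protein coding transcripts alone (2.01). Clu, which encodes clusterin, an inhibitor of the terminal pore, was the most abundant of the soluble ones, at 82.0 CPM in the sleep-deprived library and 115 CPM in the control library, a ratio of 0.713 (0.661 to 0.768). Cd46, the most abundant of the membrane ones, was at 572 CPM in the sleep-deprived library and 359 CPM in the control library, a ratio of 1.59 (1.54 to 1.65). Of its exon bases 14.2% lie opposite A330023F24Rik, and the strand setting of the counting is unknown. Of the 4 measured integrin partner and C1q binding genes 0 were called, and Lrp1, a large scavenger receptor gene reported to bind C1q, was at 1954 CPM in the sleep-deprived library and 999.5 CPM in the control library, a ratio of 1.95 (1.92 to 1.99), just under 2-fold.

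**Figure D5:**
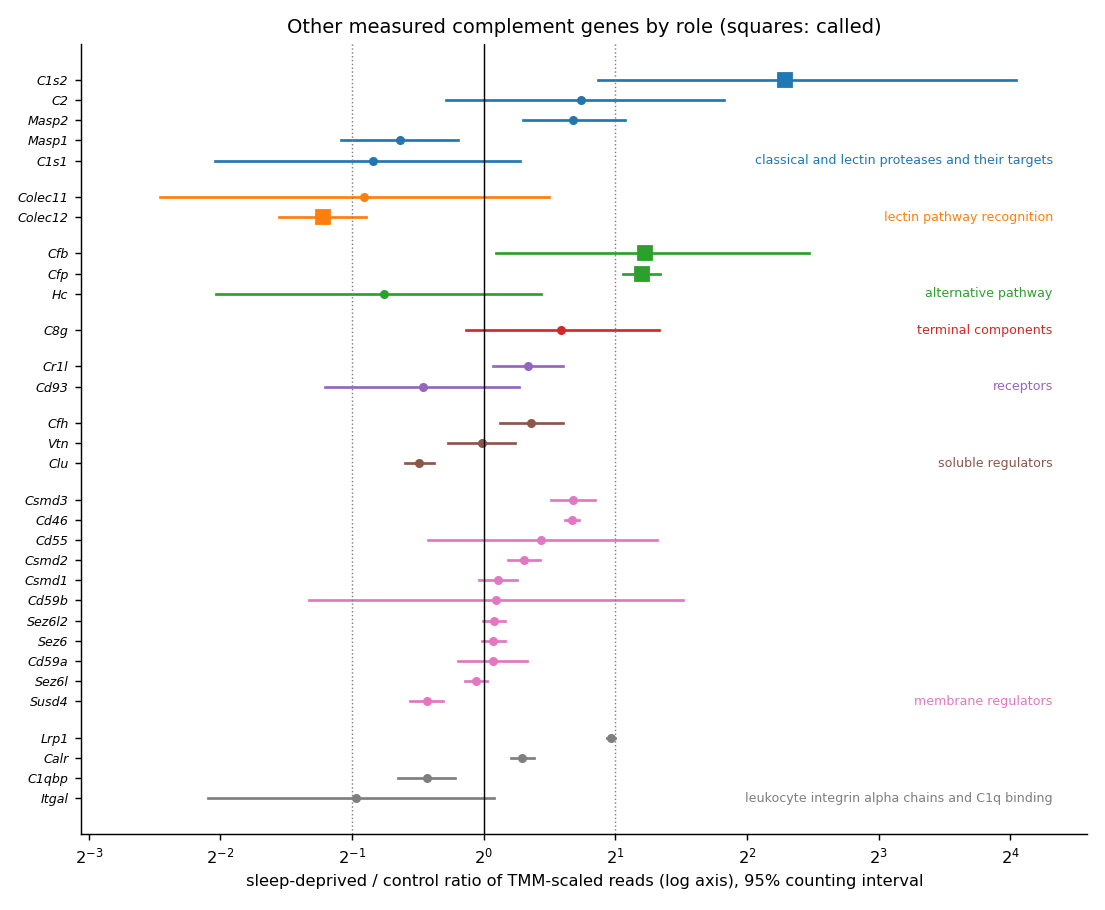
Ratio of sleep-deprived over control of TMM-scaled reads, on a log axis, for the 31 other measured complement genes grouped by role, with 95% counting intervals as lines. Squares mark the 4 called genes, C1s2, Cfb and Cfp above 2-fold and Colec12 below, and the regulators lie between 0.713 and 1.60.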

How the data were processed

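Per the file headers, the deposited tables give TPM and estimated counts for 116546 transcripts, with their lengths. The submitters' processing notes name Salmon, DESeq2 and mm10. Tool versions, read layout and strand were not given in the sources used here. The estimated counts were deposited without normalization, and the TPM were scaled by the authors to effective length and to a fixed total per file. Transcripts were matched without version to GENCODE M21 (115898, 99.4%), and the unmatched transcripts held 0.339% to 0.366% of reads. Reads were summed per gene, averaged over the 2 files of a group, rounded, and filtered with filterByExpr at a minimum count of 10 in edgeR 4.0.16 under R 4.3.3 (14907 genes measured). TMM scaling gave CPM. The planned edgeR test was not run, since the files of each group were closer than sampling noise allows over genes with a mean of at least 20 reads, which left 1 library per group. In its place stood the rule of size: at least 2-fold, with a 95% interval that excludes 1, made from the exact Clopper-Pearson bounds, computed with scipy 1.17.1, and a library under 3 reads set to 3. Ratios of ratios are odds ratios with exact conditional intervals. Sequenced reads are not independent molecules, so all intervals cover counting error only. The rule was tested on simulated counts that held counting error only, so that test says nothing of differences between mice or pulldowns. The 9 genes, the gene lists and the tests were chosen with earlier results of these data known; the motifs were chosen after the values had been seen. Genes named outside the 9 were those called, the most abundant of each role, the 5 nearest to C1q in ratio, and near-identical genes. C5ar1, Itgax, Itgal, Cd93, Hc, Masp1, Cfd, C6, C7, C9, P2ry12 and Sall1 and the single markers were named after their values had been seen. The alternatives tried were DESeq2 1.42.0 size factors, upper-quartile factors, total reads, scaling to microglial markers, no filter, TPM, a transcript length offset, protein coding transcripts alone, each file left out, and thresholds of 1.5-fold and 3-fold.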

Additional observations from a re-analysis of the deposited data

How the results depend on the processing

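No paired analysis was possible because the 2 files of a group counted as 1 library, which left no residual degrees of freedom. The sum of C4b with C4a was not run, since no transcript was matched to C4a. Scaled to microglial markers, the summed C1q ratio was 1.44, 3 of the 9 genes (all lower), 23 of the other complement genes (all lower) and 12809 of all measured genes (12769 lower) were called, and Itgam, at 0.828, lay on the other side of 1. That scale divides all ratios by 3.01, so the counts follow from its construction. With TPM the summed C1q ratio was 5.12, and the median log2 ratio of all genes was 0.22, against -0.01 with TMM scaling and 0.10 without a filter. With protein coding transcripts alone, 7 other complement genes were called, Masp2, Csmd1 and Lrp1 among them at 3.47, 2.01 and 2.19; the cause was not tested. At 1.5-fold, 6 of the 9 genes were called, against 4 at 3-fold. At 1.5-fold, 9 of the other complement genes and 3887 of all measured genes were called, against 1 and 606 at 3-fold, 4 and 1474 at 2-fold. Leaving out each file in turn gave a summed C1q ratio between 4.33 and 4.36, 5 or 6 of the 9 genes called, 3 to 5 of the others and 1482 to 1507 of all. C3ar1 (without control replicate 1), Cfb (without control replicate 2) and Itgal (0.468 without sleep-deprived replicate 2, called lower) were the complement genes whose call changed there, and Cd59b fell under the filter without sleep-deprived replicate 2. The calls of C1qa, C1qb, C1qc, Itgam and Itgb2 held under 11 of 12 alternatives of scaling, length, filter, transcripts and files, all but the microglial scale. Most of these alternatives could hardly change such calls. Those that left out a file were no separate check, because the 2 files of a group counted as 1 library. With DESeq2, upper-quartile and total-read scaling the summed C1q ratio was 4.36, 4.28 and 4.19, close to the 4.34 with TMM. At 3-fold Itgam was not called. With TPM and with the length offset 6 other complement genes were called: Cfb lost its call (1.79 and 1.60), C8g (2.37 and 2.04) and Csmd3 (2.52 and 2.17) became higher, and Hc became lower (0.393 and 0.348). One library per group, and 4 against 11 reads for C3, set the limits of depth.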
